A study of Homo sapiens with 20 samples.

Results

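The genes described here were the 7 transcription factor genes ELF3, EHF, CDX1, CDX2, HNF4A, GATA6 and SOX9, of 20007 protein-coding genes, chosen by name for their part in the intestinal epithelial lineage, with earlier results of these data known. For each gene, peaks and super-enhancers (SEs) were taken from a window made of the gene body in GENCODE and 10 kb on either side. Over all libraries the 7 windows held 217 of the 271550 peaks on the main chromosomes. H3K27ac, acetylation of lysine 27 of histone H3, is found at enhancers and promoters in use and was mapped here by chromatin immunoprecipitation and sequencing in HCT-116, a human colorectal cancer cell line. Cells carried intact FBXW7 (WT) or lacked it (KO). FBXW7 is the substrate receptor of a ubiquitin ligase. They were transfected for 48 h with a control pool of short interfering RNAs (esiCT) or with a pool against the histone deacetylase HDAC4 (esiHDAC4). They were left without drug (UNT) or exposed to 50 µM oxaliplatin (OXPT), a platinum drug that damages DNA, for the last 24 h. The 8 groups were therefore WT esiCT UNT, WT esiCT OXPT, WT esiHDAC4 UNT, WT esiHDAC4 OXPT and the same 4 treatments in KO, each with 2 libraries, named A and B. All 16 came from 1 cell line and its knockout derivative, and the sources used here do not say whether the KO cells were 1 clone. The labels speak of 3 pooled experiments without relating them to the letters, so the p-values measure the spread between these libraries, which may in part be technical.

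In the gut, CDX2 and CDX1 are homeobox factors that set and keep intestinal identity, and HNF4A is a nuclear receptor that drives enterocyte genes. GATA6 is a zinc finger factor of the endoderm and of the crypts. SOX9 is an HMG-box factor of the crypt base. ELF3 and EHF are ETS-domain factors restricted to epithelia, where they act in differentiation and barrier genes. Genes that fix a cell's identity are often covered by SEs, long stretches of closely spaced enhancers.

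The peak lists were unequal. They held between 1752 peaks in KO esiHDAC4 UNT B and 27927 in WT esiCT UNT A, and the SE lists between 66 and 1265 SEs. The low end of the read background at peaks, recovered from the deposited fold and p-value, ranged from 1.02 to 3.07 reads. The lowest fold called at about that background, here the lowest callable fold, ranged from 3.87 to 2.79. Over higher backgrounds smaller folds were listed, and the smallest in a list was 1.23 to 1.54. The 5 libraries with fewer than 11000 peaks were WT esiCT OXPT B and the 4 KO B libraries. Letter B therefore compared WT lists of 10562 to 27335 peaks with KO lists of 1752 to 8216, while letter A compared WT lists of 20136 to 27927 with KO lists of 12639 to 21875. Of the genes with a peak in 12 or more libraries, those 5 libraries listed between 14.7% and 78.1%, and the other libraries between 90.9% and 99.9%. Peaks near FBXW7 do not report the deletion and were no check of the labels. Of the epithelial markers all 6 (EPCAM, CDH1, KRT8, KRT18, KRT19, CLDN4) had a peak in at least 10 libraries. CD3E had none, SPI1 was listed in 1 library, PTPRC in 2, COL3A1 in 3 and TWIST1 and PDGFRB in 4. CD14 was listed in 6 libraries, PECAM1 in 11 and COL1A1 in 12, and what these last peaks mark was not tested.

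Promoter sequences were found in RefSeq (GRCh38.p14, the hg38 assembly) for 5 of the 7 genes, all but CDX1 and SOX9. The EHF promoters are shown because they lie inside peak regions called in WT libraries only. The ELF3 promoter is shown because it begins in the last bases of the ELF3 region at +0.7 kb and otherwise falls in the gap before the region at +3.7 kb. They are printed 5′ to 3′ on the gene's strand, from 250 bases before the start. The first EHF promoter is chr11:34624007-34624306 and the second chr11:34632316-34632615, both on the plus strand, and the ELF3 promoter is chr1:202010337-202010636, also on the plus strand. The CDX2 promoter, chr13:27969266-27969565 on the minus strand, is shown because its start site carried the only peak region of that gene. Capitals mark matches to any of 8 short motifs on either strand. The AP-1 motif was TGANTCA, present in 7.71% of 35116 RefSeq promoters. One ETS motif was AGGAAGT, present in 8.24% of them, and the other was CCGGAAG, present in 10.3%, and the pair cannot match around the same core. The GATA motif was AGATAA, present in 10.3% of promoters, and the CDX motif was CAATAAA, present in 4%. The HNF4 motif was CAAAGTCCA, present in 0.384% of promoters, the TATA box was TATAAA, present in 11.5%, and the TCF motif was TTTGAT, present in 9.53%.
EHF first promoter: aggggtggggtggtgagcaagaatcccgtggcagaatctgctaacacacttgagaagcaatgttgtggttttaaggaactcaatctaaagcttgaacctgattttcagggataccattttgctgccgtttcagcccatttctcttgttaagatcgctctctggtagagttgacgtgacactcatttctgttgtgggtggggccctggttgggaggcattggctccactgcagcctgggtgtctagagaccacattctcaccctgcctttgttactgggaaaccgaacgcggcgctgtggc
EHF second promoter: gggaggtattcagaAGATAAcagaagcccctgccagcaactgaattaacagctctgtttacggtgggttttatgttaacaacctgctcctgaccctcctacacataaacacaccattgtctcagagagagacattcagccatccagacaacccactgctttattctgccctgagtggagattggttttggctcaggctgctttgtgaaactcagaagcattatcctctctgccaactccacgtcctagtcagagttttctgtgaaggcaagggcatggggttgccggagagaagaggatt
ELF3 promoter: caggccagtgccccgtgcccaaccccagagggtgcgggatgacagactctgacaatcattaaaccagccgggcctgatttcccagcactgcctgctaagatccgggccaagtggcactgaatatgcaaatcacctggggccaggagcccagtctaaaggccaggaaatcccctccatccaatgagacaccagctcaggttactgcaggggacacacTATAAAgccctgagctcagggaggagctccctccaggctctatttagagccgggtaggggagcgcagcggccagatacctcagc
CDX2 promoter: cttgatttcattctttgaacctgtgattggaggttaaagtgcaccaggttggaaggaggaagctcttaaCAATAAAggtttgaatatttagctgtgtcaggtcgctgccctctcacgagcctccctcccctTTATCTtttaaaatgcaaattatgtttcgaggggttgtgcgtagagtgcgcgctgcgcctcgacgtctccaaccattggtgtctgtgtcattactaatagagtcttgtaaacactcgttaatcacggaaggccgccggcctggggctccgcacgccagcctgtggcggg

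The ELF3 promoter held a TATA box motif. The second EHF promoter held a GATA motif and the first held none of the 8. The CDX2 promoter held a GATA motif and a CDX motif. Another pair of sequences shows 250 bases around the strongest summit of the EHF regions that behaved least alike, both in introns of EHF and printed on the plus strand. The summit at chr11:34641100-34641349 belongs to a region called in WT libraries only, and the summit at chr11:34654543-34654792 to a region called in both genotypes.
EHF +18.8 kb region: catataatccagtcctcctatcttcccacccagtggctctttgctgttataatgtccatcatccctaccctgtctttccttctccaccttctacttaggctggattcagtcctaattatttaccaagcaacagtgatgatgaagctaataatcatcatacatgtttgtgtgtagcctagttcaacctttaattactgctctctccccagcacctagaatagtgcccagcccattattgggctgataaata
EHF +32.4 kb region: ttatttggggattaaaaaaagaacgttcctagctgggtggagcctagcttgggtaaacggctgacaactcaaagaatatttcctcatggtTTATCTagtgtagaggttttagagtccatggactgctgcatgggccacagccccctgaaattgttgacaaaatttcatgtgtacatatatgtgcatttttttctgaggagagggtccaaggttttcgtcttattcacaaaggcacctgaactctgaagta

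The +18.8 kb summit held none of the 8 motifs and the +32.4 kb summit held 1 GATA motif, which was present in 12.7% of 13833 summits of the same length away from start sites in WT esiCT UNT A. A match is a description of the letters and not a sign that a factor bound there.

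**Figure D1:**
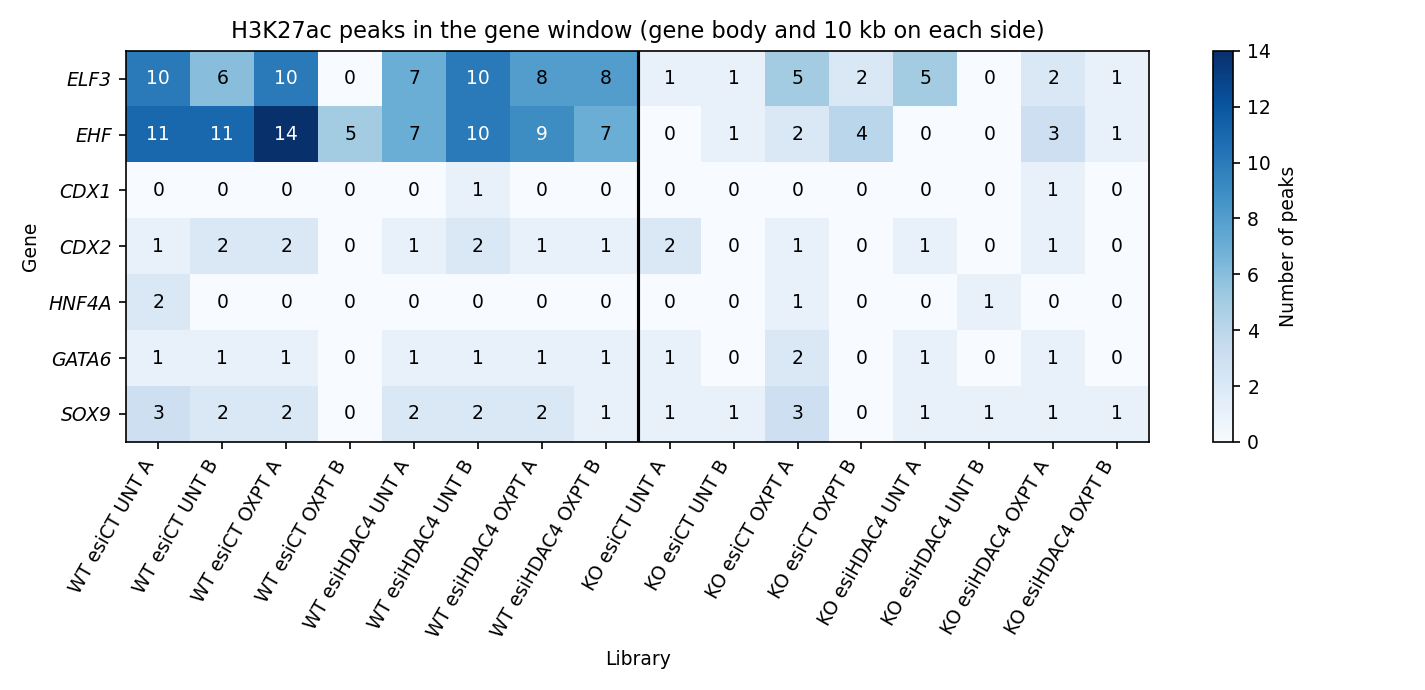
Number of H3K27ac peaks in the window of each gene (rows) in each of the 16 libraries (columns), with WT left and KO right of the black line; darker blue is a higher number. EHF had 5 to 14 peaks in WT and 0 to 4 in KO libraries, while CDX1 and HNF4A had peaks in 2 and 3 libraries.

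EHF (chr11:34621093-34663288, plus strand) had more peaks in every WT library than in any KO library. Its window held 11 and 11 peaks in WT esiCT UNT A and B, 14 and 5 in WT esiCT OXPT, 7 and 10 in WT esiHDAC4 UNT and 9 and 7 in WT esiHDAC4 OXPT. In the same order of treatments, the KO libraries held 0 and 1, then 2 and 4, then 0 and 0, then 3 and 1. The genotypes did not overlap, with means of 9.25 ± 2.87 peaks in WT and 1.38 ± 1.51 in KO (SD, n = 8 libraries each). The base pairs under these peaks did not overlap either, at 2262 to 8897 in WT and 0 to 1608 in KO. That is a second reading of the same peaks, and its share over all genes was not counted. Peak numbers so separated, with all KO below all WT, were found in 0.139% of the 15817 genes with a peak. The difference in mean log2(peak number + 1), KO minus WT, was -2.32, the largest decrease of all genes, against a median of -0.45 over all genes. Windows that can hold many peaks leave more room for such a decrease. The two-sided exact permutation test within letters gave p = 0.000408, the smallest that its 4900 arrangements allow, and an adjusted p of 0.0734 (Benjamini-Hochberg), so that EHF was not called. In that comparison 77 genes reached the smallest p, where 130 would have been needed for an adjusted p of 0.05. Called genes made up 0% of the 15817 in each of the 3 comparisons, at adjusted p under 0.05.

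The list lengths moved with genotype, so the EHF difference was also taken among lists that were closer in length. Within letter A EHF held 7 to 14 peaks in the 4 WT and 0 to 3 in the 4 KO libraries (exact permutation p = 0.0286, the smallest possible with 4 against 4, adjusted p = 1). KO esiCT OXPT A and KO esiHDAC4 UNT A listed 21875 and 21290 peaks and held 2 and 0 at EHF, whereas WT esiCT OXPT B listed 10562 peaks and held 5. Peaks were also kept only at a fold of 3.87 or more, the highest of the lowest callable folds. The log2 difference was then -1.12 (p = 0.0269, exact permutation, adjusted p = 0.219). With every list cut to its 1752 strongest peaks, or with every peak held to the depth of the shallowest library, the difference was 0.12 and the direction turned (adjusted p = 1 in both, exact permutation). The median over all genes was -0.0731 in the first setting and -0.125 in the second. The share of libraries with an EHF peak then differed by 0.125 in the first setting and by 0 in the second. The decrease at EHF in the full lists was thus absent in both settings. These alternatives of list length, depth and single letters, other than the equal list length, were chosen after the data were seen.

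Under several alternatives the EHF call passed. In limma on the same log2 numbers the adjusted p was 0.0174, where 5.44% of genes were called. With 50 kb on either side of the gene it was 0.0413 and ELF3 was called as well, where 10.1% of genes were called. Without WT esiCT OXPT B it was 0.041 for both EHF and ELF3, where 9.12% were called. Without KO esiCT OXPT A it was 0.0408 and without KO esiHDAC4 UNT A 0.0481, where 6.18% and 5% of genes were called. The WT list left out was the shortest of WT (10562 peaks), and the KO lists left out were the longest of KO (21875 and 21290). Each removal therefore widened the gap in list length between the genotypes. None of these alternatives evened out list length, and its part in these calls was not tested.

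**Figure D2:**
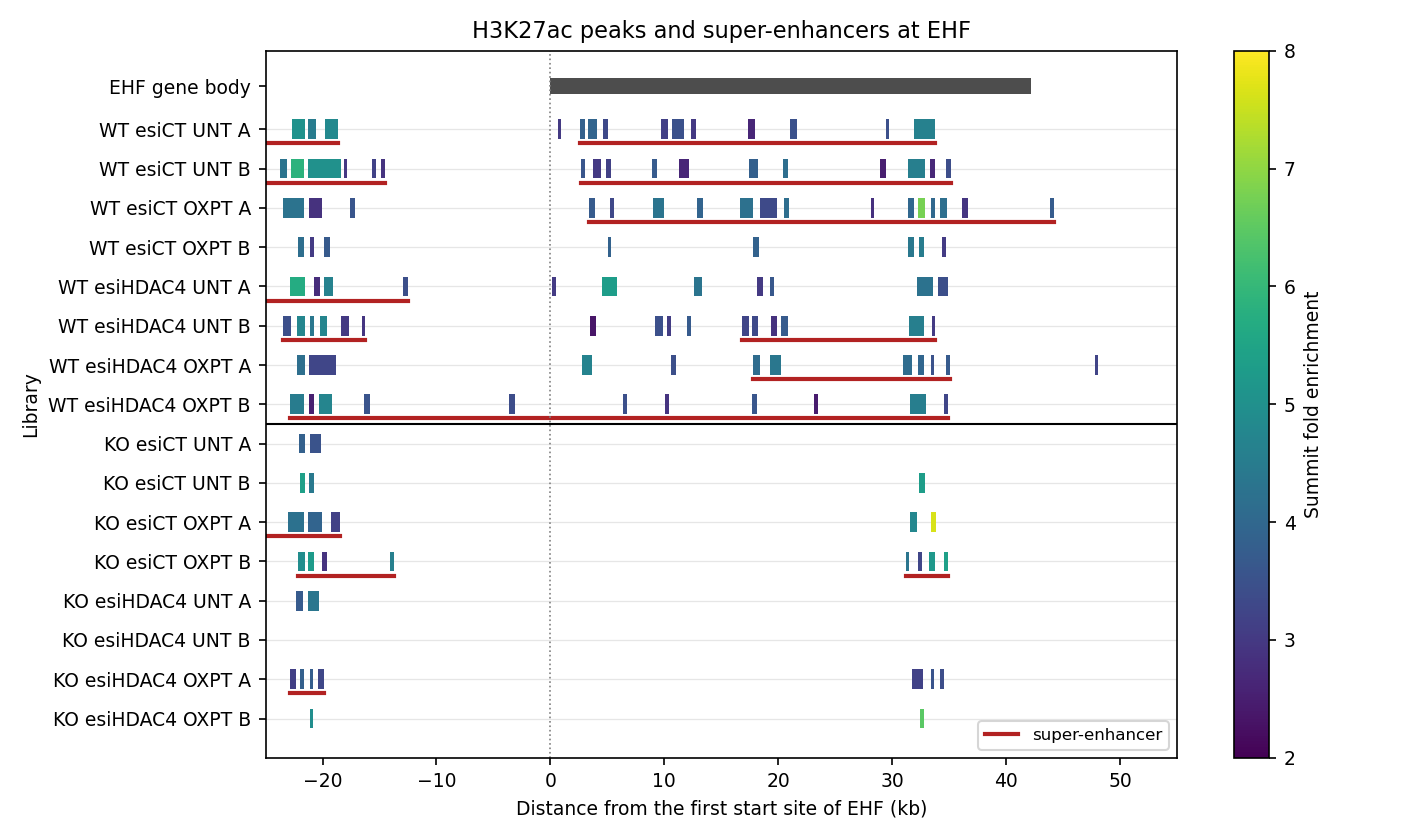
Peaks (bars coloured by summit fold) and SEs (red lines) around EHF in the 16 libraries, as distance from the first start site in kb; the grey bar is the gene body and WT lies above the black line. Peaks between +3.5 and +18.8 kb appear in WT rows alone, while peaks near -20 kb and +32.4 kb appear in both genotypes.

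Among EHF peak regions called in 3 or more libraries, those called in WT alone lay in one stretch of the locus. Peaks of all libraries merged into 17 regions in the window, of which 15 were called in WT libraries only and 0 in KO libraries only, and 10 were called in a single library. Of all 58860 merged regions of the genome, 45% were called in WT libraries only and 19.4% in KO libraries only, from WT lists that were longer. Of the 6 EHF regions called in 3 or more libraries, 4 were called in WT libraries only, against 14.1% of all such regions. The regions at +3.5 kb and +5.2 kb from the first start site were each called in 5 WT and 0 KO libraries. The +3.5 kb region contains the first RefSeq promoter of EHF. The +11.2 kb region (chr11:34630050-34634486), which contains the second RefSeq promoter, was called in 7 WT and 0 KO libraries. The +18.8 kb region (chr11:34637713-34642049, in an intron) was called in all 8 WT and in 0 KO libraries. The exact test stratified by letter gave p = 0.000408 for that region and 0.00204 for the +11.2 kb region, each with an adjusted p of 0.208. Over the 20090 regions called in 3 to 13 libraries, 0.657% were called in at least 7 WT and no KO library, 13.6% had p under 0.05 for genotype, and 0% were called at adjusted p under 0.05 for genotype, oxaliplatin or HDAC4 silencing. These region tests were added after the data were seen.

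No KO library had a peak within 1 kb of any of the 11 annotated EHF start sites, against 7 of 8 WT libraries. The share of genes with such a contrast at their start sites was not counted. Depth set a limit here as well. The fold of the +18.8 kb region in the WT libraries was 3.62, 3.62, 3.69, 3.86, 4.15, 4.21 and 4.39, and 2.65 in WT esiCT UNT A, from 11 to 22 summit reads. At the median ratio of reads to background in these libraries, the region would have passed in 3 of the 8 KO libraries: KO esiCT OXPT A, KO esiHDAC4 UNT A and KO esiHDAC4 OXPT A. It was not called in them. In the other 5 KO libraries a peak at that ratio would have fallen short, as it would have in WT esiHDAC4 UNT A, where the region was nevertheless called, with 11 reads over a local background of 2.32 reads. The calculation takes the low end of the background of each library and is no strict limit of detection.

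Both flanks of the stretch carried peaks in KO cells. Beyond the window, a region at -22.6 kb was called in 8 WT and 6 KO libraries, with folds of 4.14 to 5.86 and 3.69 to 5.39. A region at -19.5 kb was called in 8 WT and 7 KO libraries. On the other side, the +32.4 kb region (chr11:34652092-34654920, in an intron) was called in 8 WT and 5 KO libraries, with folds of 4.1 to 6.76 and 3.56 to 7.63. The test of its presence by genotype gave exact p = 0.214 and adjusted p = 0.497. All 3 KO libraries able to show the +18.8 kb region listed the -19.5 kb region, and 2 of them the +32.4 kb region. ELF5, the ETS gene next to EHF whose end lies 95.9 kb before the EHF start, held 1 to 4 peaks in WT and 0 to 4 in KO libraries (log2 difference -0.25, exact permutation p = 0.544, adjusted p = 0.747).

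In KO cells the EHF numbers were compared with and without oxaliplatin. KO esiCT went from 0 to 2 peaks in A and from 1 to 4 in B with OXPT, and KO esiHDAC4 from 0 to 3 in A and from 0 to 1 in B. The number was higher in 4 of 4 pairs, as it was for 2.16% of the 15817 genes. The lists of the same pairs went from 12639 to 21875 peaks, from 6126 to 8216, from 21290 to 18343 and from 1752 to 6084, so that the OXPT list was longer in 3 of the 4, and the part of list length in the EHF numbers was not tested. The log2 difference within KO was 1.48 (two-sided exact permutation p = 0.111, smallest possible 0.0556), and this comparison was chosen after the values were seen. In WT esiCT the number went from 11 to 14 in A and fell to 5 from 11 in B, and whether the genotypes differed in this response was not tested. The +32.4 kb region was called in 1 of 4 KO UNT libraries and in 4 of 4 KO OXPT libraries. KO esiCT UNT A and KO esiHDAC4 UNT A could have shown it at its median strength and did not. Over all 16 libraries, EHF presence with OXPT was 8 of 8 against 5 of 8 UNT libraries (exact p = 0.214, not called). The median gene tested differed by 0, and 0% of 11064 genes were called. All 8 WT libraries had a peak, so the difference lay in the KO libraries alone.

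ELF3 (chr1:202007945-202017183, plus strand) followed EHF in size. Its window held 10 and 6 peaks in WT esiCT UNT A and B, 10 and 0 in WT esiCT OXPT, 7 and 10 in WT esiHDAC4 UNT and 8 and 8 in WT esiHDAC4 OXPT. The KO libraries held 1 and 1, then 5 and 2, then 5 and 0, then 2 and 1. Apart from WT esiCT OXPT B, which had no ELF3 peak, WT lay at 6 or more and KO at 5 or fewer. Means were 7.38 ± 3.34 in WT and 2.12 ± 1.89 in KO (SD, n = 8). The log2 difference was -1.40, within the lowest 0.986% of genes (exact permutation p = 0.0155, adjusted p = 0.117). Lower numbers in KO with p under 0.05 were found in 27.2% of all genes and in 2 of the 7 lineage factors, ELF3 and EHF. Without WT esiCT OXPT B the ELF3 number was called lower in KO, as given above. Held to the depth of the shallowest library the ELF3 difference was -0.96 (exact permutation p = 0.0563, adjusted p = 0.985). With lists of equal length it was -0.125, against a median of -0.0731 over all genes, and it was not called.

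At the start of ELF3, the region at +0.7 kb (chr1:202006978-202010395) was called in 7 libraries of WT and 2 of KO, with p = 0.0306 by the exact test and an adjusted p of 0.258. The +3.7 kb region appeared in 6 WT lists and 3 KO lists (exact p = 0.214). At its median strength the +0.7 kb region would have passed in 4 of the 6 KO libraries that lacked it, among them KO esiCT UNT A and KO esiHDAC4 OXPT A. Downstream of the gene, the +10.9 kb region was called in 7 WT and 5 KO libraries and the +15.4 kb region in 7 and 4. The latter held the strongest peak in the ELF3 window, of fold 8.33 with 30 summit reads in WT esiCT UNT A. Beyond the window the +49.2 kb region was called in 8 WT and 7 KO libraries and the +76.7 kb region in 8 and 6. The +21.5 kb region was called in 8 and 2 (exact p = 0.00612, adjusted p = 0.258). The 10 kb window of ELF3 also takes in part of RNPEP, the gene before it.

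**Figure D3:**
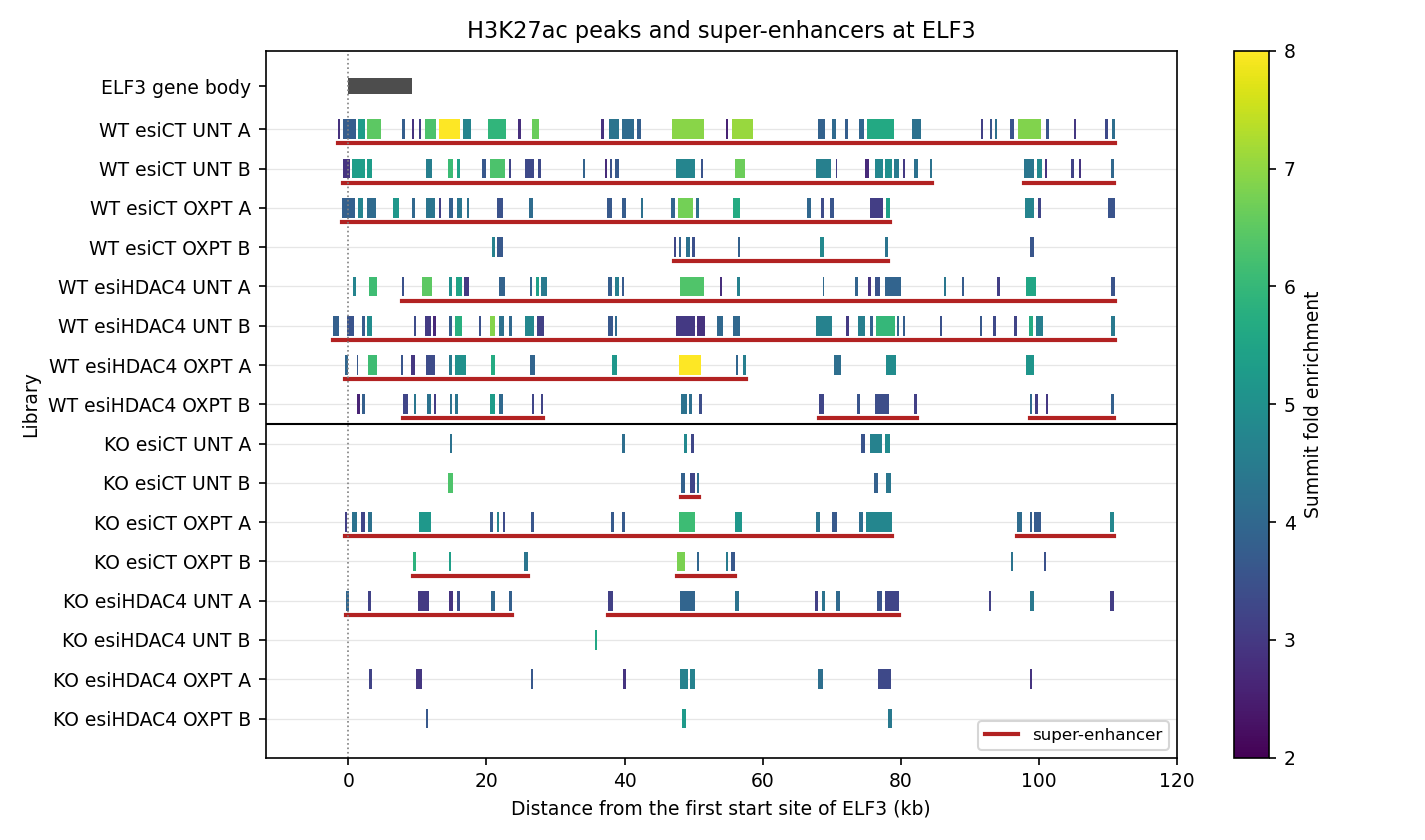
Peaks (bars coloured by summit fold) and SEs (red lines) around ELF3 in the 16 libraries, as distance from the first start site in kb; the grey bar is the gene body and WT lies above the black line. SEs run up to +111 kb in WT rows and up to +110.9 kb in KO esiCT OXPT A, and the region at +49.2 kb is marked in 15 of 16 rows.

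Of the 7 genes, ELF3 and EHF had an SE in their window in any library. ELF3 had one in 7 WT and 3 KO libraries. In WT its length was 113 kb and 85.4 kb in esiCT UNT A and B, 79.4 kb in esiCT OXPT A, 103 kb and 113 kb in esiHDAC4 UNT A and B, and 58.1 kb and 20.3 kb in esiHDAC4 OXPT A and B. In KO it was 79.4 kb and 16.6 kb in esiCT OXPT A and B and 24 kb in esiHDAC4 UNT A. They ran downstream of ELF3, up to +111 kb. The SEs of WT esiHDAC4 UNT A, WT esiHDAC4 OXPT B and KO esiCT OXPT B began after its start sites and the other 7 covered at least 1. ELF3 was the only protein-coding gene they touched, except that WT esiHDAC4 UNT B also reached RNPEP and KO esiCT OXPT B touched none. In WT esiCT UNT A, WT esiCT OXPT A and WT esiHDAC4 UNT B the ELF3 SE was the 6th longest of 758, 394 and 771 SEs. The share of libraries with an SE at ELF3 was lower in KO by 0.5, with exact p = 0.12 and adjusted p = 0.681. WT esiCT OXPT B and KO esiCT UNT B had an SE that began further downstream than the window. Beside the SE in its window, KO esiCT OXPT A had another from +96.8 to +110.9 kb and KO esiHDAC4 UNT A another from +37.6 to +79.8 kb. Further SEs past the window were also listed in KO esiCT OXPT B, WT esiCT UNT B and WT esiHDAC4 OXPT B.

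The EHF SE was called in 6 WT libraries and 1 KO library. Its length was 31.1 kb and 32.5 kb in WT esiCT UNT A and B, 40.8 kb in WT esiCT OXPT A, 17 kb in WT esiHDAC4 UNT B and 17.2 kb and 57.7 kb in WT esiHDAC4 OXPT A and B. In KO esiCT OXPT B it was 3.69 kb long, covered the +32.4 kb region and reached none of the start sites. The WT SEs covered from 17 to 57.7 kb and each took in at least 1 annotated start site. The exact test gave p = 0.0469 and an adjusted p of 0.679. Of the 739 genes with an SE in 3 to 13 libraries, 6.36% had p under 0.05 for genotype and 0% were called at adjusted p under 0.05 in any of the 3 comparisons. SEs also lay upstream of the EHF window. From -40 kb to +55 kb around the EHF start, 7 WT and 3 KO libraries had an SE, the latter being KO esiCT OXPT A, KO esiCT OXPT B and KO esiHDAC4 OXPT A. Since SE lists ranged from 66 to 1265 entries, a missing SE may be a missing call.

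CDX2 (chr13:27960918-27969315, minus strand) and GATA6 (chr18:22169589-22202528, plus strand) were listed in the same 11 libraries. These were all 8 A libraries and 3 of the WT B libraries, and the 5 libraries without a peak were the 5 with the shortest lists. The CDX2 peaks formed 1 region at the start of the gene (chr13:27967522-27969834), with 1 or 2 peaks in each library. Its fold was 7.26, 4.17, 5.31, 6.3, 3.91, 4.9 and 3.76 in WT and 3.75, 5.15, 4.05 and 3.81 in KO libraries. Both sets overlapped. The GATA6 peak lay at the start site (chr18:22169564-22171088) with folds of 3.76 to 6.66 in 7 WT and 3.26 to 4.91 in 4 KO libraries, which also overlapped. KO esiCT OXPT A had a further GATA6 peak just before the start. For each gene presence was lower in KO by 0.375 of libraries, the same as the median gene tested (exact p = 0.143, adjusted p = 0.347), and 0% of 11064 genes were called for presence in any of the 3 comparisons. At its median strength the CDX2 region would have passed in 3 of the 5 libraries without it.

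SOX9 (chr17:72121020-72126416, plus strand) was listed in 14 libraries, 7 of each genotype. It held 3, 2, 2, 0, 2, 2, 2 and 1 peaks in WT and 1, 1, 3, 0, 1, 1, 1 and 1 in KO, with the groups in the order used for EHF. The log2 difference in number was -0.37 (exact permutation p = 0.156, adjusted p = 0.325), close to the median of all genes. Its main region, in the first part of the gene (chr17:72121034-72122316), was called in 7 WT and 6 KO libraries and was the one with the most KO calls among the lineage factors (exact p = 1). It was the only region of the 7 genes called in KO esiHDAC4 UNT B, the shortest list, apart from 1 at HNF4A. Folds there were 4.46 to 7.59 in WT and 3.52 to 6.04 in KO libraries. A second region 5′ of the start was called in 5 WT libraries and 1 KO library (exact p = 0.0714, adjusted p = 0.378).

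CDX1 and HNF4A were almost unmarked. CDX1 (chr5:150166778-150184558, plus strand) had 1 peak in WT esiHDAC4 UNT B, of fold 2.81 and before the gene, and 1 in KO esiHDAC4 OXPT A, of fold 3.78 and in an intron of its neighbour SLC6A7. Neither lay at its start site. HNF4A (chr20:44355699-44432845, plus strand) had 2 peaks in WT esiCT UNT A and 1 each in KO esiCT OXPT A and KO esiHDAC4 UNT B. Those in WT esiCT UNT A and KO esiCT OXPT A included a peak at its first start site, of folds 4.16 and 3.45. At the median strength of that pair, the HNF4A start-site region would have passed in 9 of the 14 libraries that lacked it. HNF4G, the paralogue of HNF4A, was listed in 11 libraries and CDX4, a paralogue of CDX1 and CDX2, in none.

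**Figure D4:**
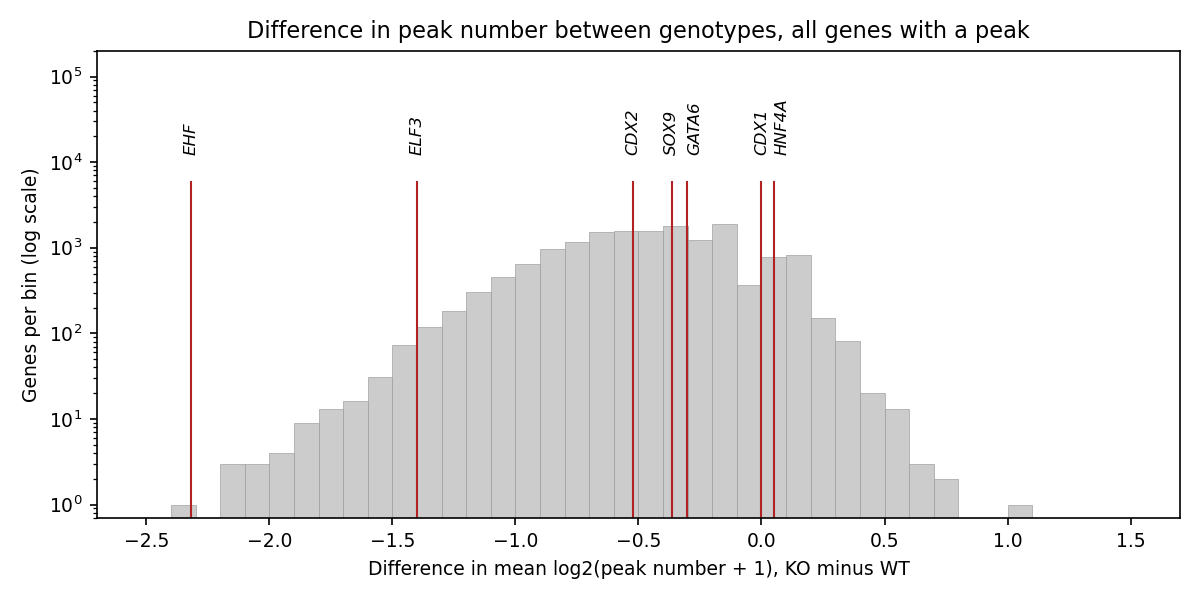
Difference between KO and WT in mean log2(peak number + 1) for the 15817 genes with a peak in any library (grey bars, log axis) with the 7 lineage factors as red lines. EHF lies at -2.32 and ELF3 at -1.40, and the other 5 between -0.52 and 0.05, around the median of -0.45.

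Peak strength gave less than peak number. The summit fold of a gene was the largest in its window, and no lineage factor had a peak in all 16 libraries, so none was among the 484 genes of the planned limma fit and no genes of like pattern could be named. In a second fit, with genes listed in at least 8 libraries and a missing fold set to the smallest in that list, 5 of the 7 entered (ELF3, EHF, CDX2, GATA6, SOX9) among 10411 genes. None was called. For KO against WT, 13.8% of these genes were called. The log2 difference was -0.71 ± 0.32 (SE) at CDX2 (limma, adjusted p = 0.0982) and -0.72 ± 0.32 at GATA6 (limma, adjusted p = 0.0914), against a median of -0.46 over all genes. A further setting, chosen after the data were seen, put a missing fold at the lowest callable fold of its library. The CDX2 and GATA6 differences were then -0.18 and -0.20 and the median of all genes -0.05. By that setting and letter A alone, ELF3 was called lower in KO (log2 difference -0.57 ± 0.16, SE, limma, adjusted p = 0.0421), where 3.29% of genes were called.

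**Figure D5:**
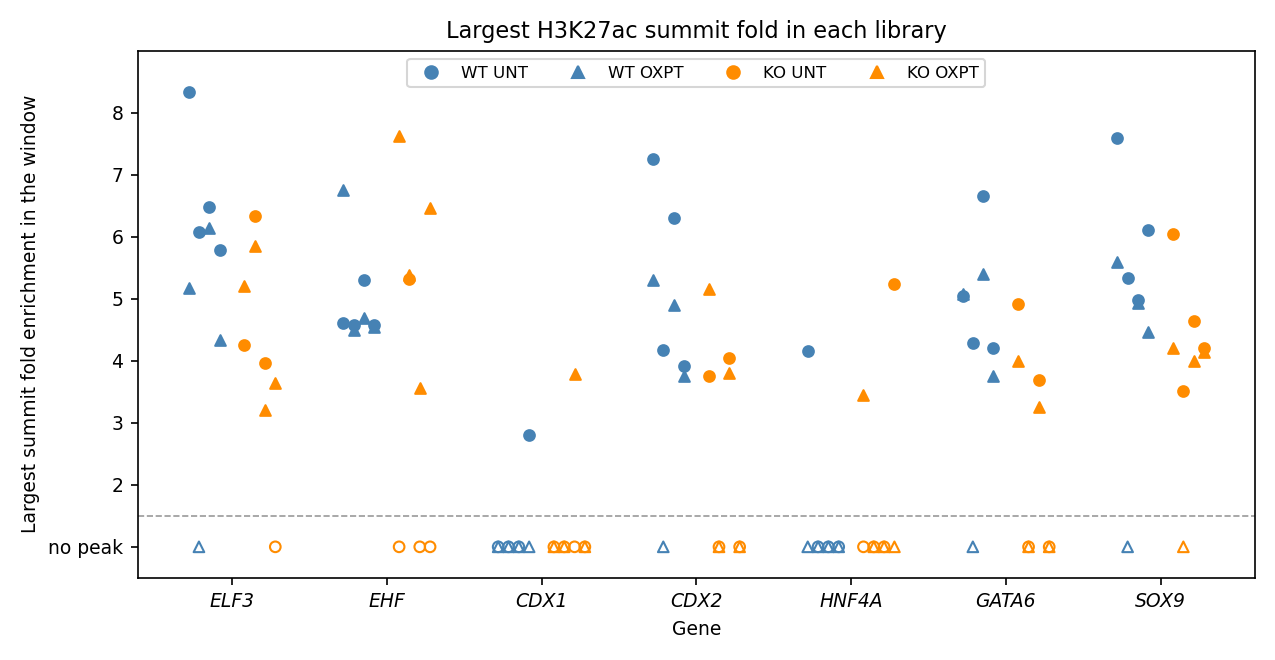
Largest summit fold enrichment in the window of each gene in each library, WT in blue and KO in orange, circles without and triangles with oxaliplatin; open symbols below the dashed line are libraries without a peak. EHF reached 6.76, 6.46 and 7.63 in 3 oxaliplatin libraries, and CDX2 and GATA6 ranges overlap between genotypes.

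In the second fit, with missing folds filled, EHF had the largest difference in fold with oxaliplatin of the 5 genes. Without drug the largest EHF fold was 4.61 and 4.57 in WT esiCT A and B, 5.31 and 4.57 in WT esiHDAC4, and 5.32 in KO esiCT B, with no peak in the other KO UNT libraries. With drug it was 6.76 and 4.49 in WT esiCT, 4.69 and 4.55 in WT esiHDAC4, 7.63 and 5.38 in KO esiCT and 3.56 and 6.46 in KO esiHDAC4. The values overlapped, and the rise was large in WT esiCT A alone of the 4 WT pairs. The log2 difference, OXPT against UNT, was 0.95 ± 0.31 (SE, limma fitted across all genes, adjusted p = 0.405). An unadjusted p under 0.05 was reached by 5.19% of genes and an adjusted one by 0.0384%. With missing folds at the lowest callable value the log2 difference was 0.47 ± 0.13 (limma, adjusted p = 0.207). In both, the KO UNT libraries without a peak entered at the filled value. Among libraries with an EHF peak the median fold was 4.61 in 5 UNT libraries and 5.04 in 8 OXPT libraries. At ELF3 the number in WT esiCT was 10 without and 10 with the drug in A and went from 6 to 0 in B, where the OXPT list is 1 of the 5 short ones. In WT esiHDAC4 it went from 7 to 8 in A and from 10 to 8 in B. In KO esiCT it went from 1 to 5 in A and from 1 to 2 in B, and in KO esiHDAC4 from 5 to 2 in A and from 0 to 1 in B. The pairs thus went in both directions. The difference between the genotypes in the fold response of ELF3 was 0.94 ± 0.79 (SE, limma, adjusted p = 0.893). None of the 5 was called in either genotype, and 0% of genes were called for OXPT in WT esiCT or in KO esiCT.

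Silencing of HDAC4 moved none of the 7 past a threshold. Over all libraries the log2 difference in peak number, esiHDAC4 against esiCT, was -0.35 at EHF (exact permutation p = 0.632) and 0.26 at ELF3 (p = 0.667), with an adjusted p of 1 for both. Under oxaliplatin in KO cells, ELF3 went from 5 to 2 peaks in A and from 2 to 1 in B, and its fold from 5.2 to 3.21 and from 5.85 to 3.64. The fold difference of -0.53 ± 0.56 (SE) had an adjusted p of 0.872 (limma). In WT cells the same contrast went from 10 to 8 and from 0 to 8 peaks. The lists of these pairs moved the same way. They went from 21875 to 18343 peaks in KO A and from 8216 to 6084 in KO B. In WT they went from 24346 to 20136 in A and from 10562 to 19352 in B. The part of list length in the ELF3 numbers was not tested. Genes called for summit fold made up 0% for esiHDAC4 against esiCT and for esiHDAC4 in WT OXPT or KO OXPT.

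Related genes were counted for comparison, from lists drawn up with earlier results of these data known. Of 18 other intestinal and endodermal factors, 13 had a peak in any library, and FOXA2, ISX, ATOH1, PROX1 and MYB had none. Fewer peaks in KO with an exact p under 0.05 were found for 3 of the 13: FOXA3 (log2 difference -0.99, adjusted p = 0.0739), KLF4 (-0.72, adjusted p = 0.142) and TCF7L2 (-0.58, adjusted p = 0.0919), all by exact permutation. Such a decrease was found in 27.2% of all 15817 genes with a peak, and the counts of the other lists below stand against the same share. TCF7L2, the main effector of WNT signalling in the gut, had peaks in all 16 libraries and an SE in 15. KLF5, a factor of proliferating crypt cells, had an SE in 3 WT and 2 KO libraries. Of 14 intestinal epithelial genes, 7 had a peak anywhere. FABP1, KRT20, TFF3, CEACAM5, SI, APOA4 and SLC26A3 had none, while MUC2 was listed in 12 libraries. PHGR1 alone of the 7 had a p under 0.05 (-0.70, exact permutation, adjusted p = 0.162). Of the 11 paralogues with a peak, 1 had a p under 0.05, ELF2 (-1.14, exact permutation, adjusted p = 0.099). The median log2 difference was -0.37 over the 7 lineage factors, -0.31 over the other factors, -0.25 over the epithelial genes and -0.20 over the paralogues, each nearer to 0 than the median of all genes. It was -0.55 over the 6 epithelial markers, of which CDH1 and CLDN4 had a p under 0.05 (exact permutation). Over the 5 mesenchymal and endothelial markers it was -0.50, and PECAM1 had a p under 0.05 (-0.72, exact permutation p = 0.029, adjusted p = 0.142). Both medians were further from 0 than the median of all genes. No gene of these lists was called in any of the 3 comparisons.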

How the data were processed

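H3K27ac ChIP-seq was analysed in 16 HCT-116 libraries (8 groups, replicates A and B per the labels). The submitters' processing notes name Trimmomatic 0.39, Bowtie2 2.4.4, SAMtools 1.18, MACS2 2.2.7.1 and hg38, and the authors deposited 1 peak list per library. SEs were made with ROSE. The study kept SEs marked by both H3K27ac and H3K4me1. Whether the deposited lists had already been limited in that way, and which control stood behind the peak calls, are not given in the sources used here. In the deposited peak lists, fold is the ratio of summit reads to local background with 1 added to each. The ratio of reads to background used to judge callability has no such addition. The p-value and q-value are −log10 values, and the score is derived from q. The deposited SE lists hold positions. No read counts were used here.

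Summit reads and background were recovered from fold and p (99.5% to 100% of peaks solved, tolerance 0.01 on −log10 p), and a peak was taken as callable where its p passed the lowest p in that list. Windows used GENCODE 44 protein-coding genes, and coordinates are 1-based. Presence was tested with an exact test stratified by letter (genes or regions in 3 to 13 libraries), number with an exact permutation test within letters on log2(number + 1), and fold with limma 3.58.1 in R 4.3.3. All p-values were two-sided, with Benjamini-Hochberg adjustment over all features tested and a threshold of 0.05. The tests were checked on simulated data. The lineage factors and gene lists were chosen with earlier results of these data known. All 7 factors are named, and other list genes are named where they passed the threshold, had an SE in the most libraries, or, after their values were seen, where a count was small. Motif shares refer to windows of the same length. The 4 input samples were not analysed here. One gene of the marker lists is not reported here.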

Additional observations from a re-analysis of the deposited data

How the results depend on the processing

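No lineage factor was called for presence of a peak (27 alternatives) or of an SE (22 alternatives). For peak number the count was 0 in the main comparison, 2 with 50 kb on either side (EHF and ELF3), 1 with limma (EHF) and between 0 and 2 when each library was left out in turn. Over all genes and the 3 contrasts, 0 were called in the main comparison, 1777 with 50 kb windows, 861 with limma and up to 1440 without 1 library. The EHF difference turned to 0.125 both with lists cut to the shortest length and with depth matched, and kept its direction or was 0 elsewhere. For summit fold 0 of the lineage factors could be tested in the main fit. The count was 1 (ELF3) in letter A alone with missing folds at the lowest callable fold, and 0 in the other 63 alternatives and in all 62 of the single conditions. A limit of −log10 q of 10 or more left no gene for the fold fit. The fold limit of 3.87, depth matching, single letters and filling at the lowest callable fold were chosen after seeing the data. The depth of the lists limits every absence: the lowest callable fold, at the low end of the background, was 2.79 to 3.87.

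The tests kept the replicate letter as a block, as the study's design did. Of 28 pairs of groups, 15 had a correlation over 0.1 between the deviations of same-lettered libraries from their group means (484 genes, median 0.115, range -0.117 to 0.402), so a letter effect was shared by some pairs and not by all. Without the replicate block the EHF difference in number was -2.32 (exact permutation p = 0.000155, adjusted p = 0.11) and 0 lineage factors were called for presence, SEs, number or fold. The block mattered for fold over all genes: for KO against WT in the fit of genes listed in at least 8 libraries, 1433 genes were called with it and 1 without.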
